A study of Homo sapiens with 6 samples.

Results

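Integrins and the proteins of focal adhesions, the contacts through which a cell holds its matrix, were followed in HMC3 cells, an immortalized human microglial cell line, after irradiation. The 38 genes were taken by name (10 alpha and 5 beta integrin subunits, 11 activators and actin linkers, 4 proteins of the ILK-PINCH-parvin complex, 4 kinases and scaffolds, and 4 zyxin-family and actin assembly proteins). They held 409 of the 153848 transcript rows and 38 of the 31768 genes in the counts. Polyadenylated RNA was read by Oxford Nanopore cDNA-PCR sequencing in 3 independent cultures exposed to 0 Gy and 3 exposed to 15 Gy of X-rays, each collected 24 h later, so every comparison is irradiated over control. A single cell line and a single time were measured.

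An integrin is a pair of one alpha and one beta subunit that spans the membrane and binds matrix proteins such as collagen, laminin and fibronectin. Talin and kindlin switch it to its binding state, while vinculin, filamin and alpha-actinin tie it to actin. The kinases FAK and SRC, with the scaffolds paxillin and p130Cas, turn this contact into signals that steer spreading, migration and survival.

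Library totals ran from 4870897 to 9082409 counts, of which 95.63 to 96.45% were kept after the low-count filter, and the members held 0.212 to 0.416% of a library. The TMM scaling factors stood apart by dose, at 0.793 to 0.928 in control and 1.09 to 1.24 in irradiated libraries. The microglial label was carried weakly by its markers: 6 of 13 microglial genes had no counts (CX3CR1, P2RY12, TMEM119, TYROBP, ITGAM and C1QA), and most of their summed level, 23.5 to 34.1 CPM in control and 33.3 to 37.3 CPM in irradiated libraries, came from CD68. The 12 fibroblast and pericyte markers summed to 319 to 339 CPM in control and 299 to 352 CPM in irradiated libraries, nearly all from COL1A1 (means of 177 and 194 CPM) and THY1 (127 and 82.9 CPM). COL3A1 and LUM had no counts and DCN and PDGFRA 2 counts each in all, while ACTA2 averaged 4.18 and 14.4 CPM and MCAM 16.4 and 26.1 CPM. The endothelial markers summed to 0.585 to 0.953 and 0.986 to 1.54 CPM, and the astrocyte markers to 15.7 to 32.3 and 20.2 to 24.9 CPM. Nearly all of the astrocyte sum came from SLC1A3 (means of 24.3 and 20.3 CPM), while AQP4 had no counts and GFAP averaged 0.415 and 0.609 CPM. Whether these levels bear on the results below was not tested.

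Sequences over splice junctions that differ between some isoforms of ILK and ITGAE are shown first. They mark exon inclusion or skipping in ILK and different upstream exons in ITGAE, and do not separate every isoform named below. Each is 30 bases over a splice junction in GENCODE release 29 (GRCh38), with the downstream exon in capitals. ILK lies at chr11:6603708-6610874 on the plus strand and ITGAE at chr17:3714628-3801243 on the minus strand. The first pair enters or skips the 166-base ILK exon at chr11:6608046-6608211, the second pair enters or skips the 97-base ILK exon at chr11:6608694-6608790 (ENST00000528995 also lacks the 86-base exon at chr11:6609071-6609156), and the last pair joins the same ITGAE exon from different upstream exons.
ILK ENST00000420936, exon included: cgacctcaaccagggGGACGATCATGGCTT
ILK ENST00000526711, exon skipped: cgacctcaaccagggCTATTGCAGTACAAG
ILK ENST00000299421, exon included: gatcaagtggcagagGACCTGGTGGCAAAT
ILK ENST00000528995, 97-base exon skipped: gatcaagtggcagagAGCGGGCAGAGAAGA
ITGAE ENST00000263087, coding transcript: gatcactctgaggagTTACTAAAAGATGTA
ITGAE ENST00000572179, processed transcript: tacagttcggttcagTTACTAAAAGATGTA

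Of the 38 members, 35 passed the filter and were tested among 11118 genes. The 3 left out, ITGA4, ITGB3 and ITGB8, had 3 to 9, 4 to 19 and 3 to 12 counts per library. ITGB3 reached the gene minimum but had only 1 transcript past the transcript minimum. With no filter they stood at 0.25, 1.06 and 0.16, and none was called (edgeR adjusted p = 0.899, 0.34 and 0.925). At an adjusted p under 0.05 by the quasi-likelihood test of edgeR (Benjamini-Hochberg), 9 members were higher after 15 Gy and 2 were lower, while 24 were not called. Over all tested genes 11.6% were called higher and 14.1% lower, 25.7% in all. At an unadjusted p under 0.05 there were 16 members higher and 3 lower, against 19.6% and 19.3% of all genes. Only BCAR1 also passed an absolute log2 fold change of 1, against 4% of all genes higher and 1.7% lower by that rule. The groups did not overlap, upward, in 13 members and, downward, in 3, against 21.5% and 21.3% of all genes. Without irradiated 1 there were 5 members higher and 0 lower, when the shares of all genes also fell, to 6.24% and 8.79%. The lower calls fell to 0 without irradiated 3 (8.9% of all genes) and to 1 without control 1 (10.7%) or control 2 (9.08%). The median log2 fold change was 0.35 over the members and 0.08 over all genes.

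Fold changes rose with transcript length across all genes, and the members are long genes. Among 5 classes of equal gene number, the shortest genes (201 to 1521 nt) had a median log2 fold change of -0.37 and the longest (4447 to 45202 nt) one of 0.33, while the members had a median of 4369 nt against 2689 nt. The longest class held 16 members, 3 of them called higher, against 14.1% of all genes in that class, and the class next to it held 13, 5 of them called higher, against 15.1%. With an offset that removed each library's trend of counts on length, the members' median was 0.05. Of the 11 calls, 7 held (ITGA3, ITGA6, FLNC, SRC, BCAR1, VASP and ZYX). Lengths came only from transcripts in GENCODE release 29, so counts on other transcripts did not weigh in. Among these 7, such counts were 66.5% of control counts in FLNC, 61.6% in VASP, 40.2% in ITGA6, 30.1% in SRC and 0 in the rest. They were 79.6% in ITGAV, 75% in ACTN1 and 63.4% in ITGB1, so those lengths rest on a minority of counts. Across genes, Spearman's rho of log2 fold change on length was 0.37 over 10668 genes and 0.12 over the 35 members, which share the same libraries. ITGA3, ITGA6, FLNC, SRC and BCAR1 were past the threshold in each of the 13 alternatives run. The other called members passed in fewer, namely VASP in 11, ACTN4 in 9, ITGAE in 8, ZYX in 8, FLNA in 7 and PXN in 5.

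**Figure D1:**
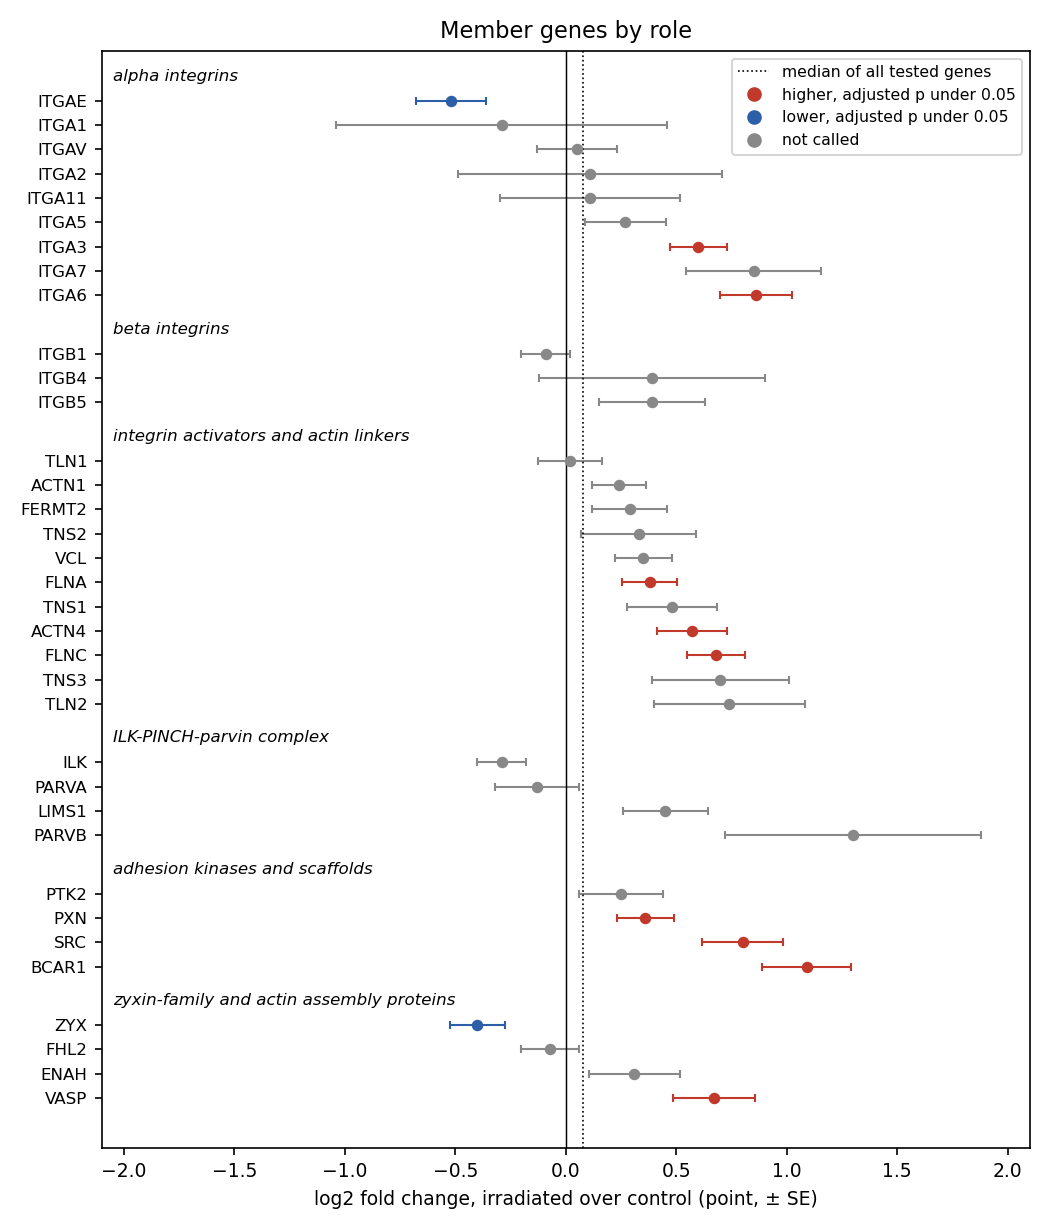
Log2 fold change (irradiated over control, point with SE) of the 35 tested members by role, with the median of all genes as a dotted line. Red points are the 9 genes called higher, blue the 2 called lower and grey the 24 not called.

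**Figure D2:**
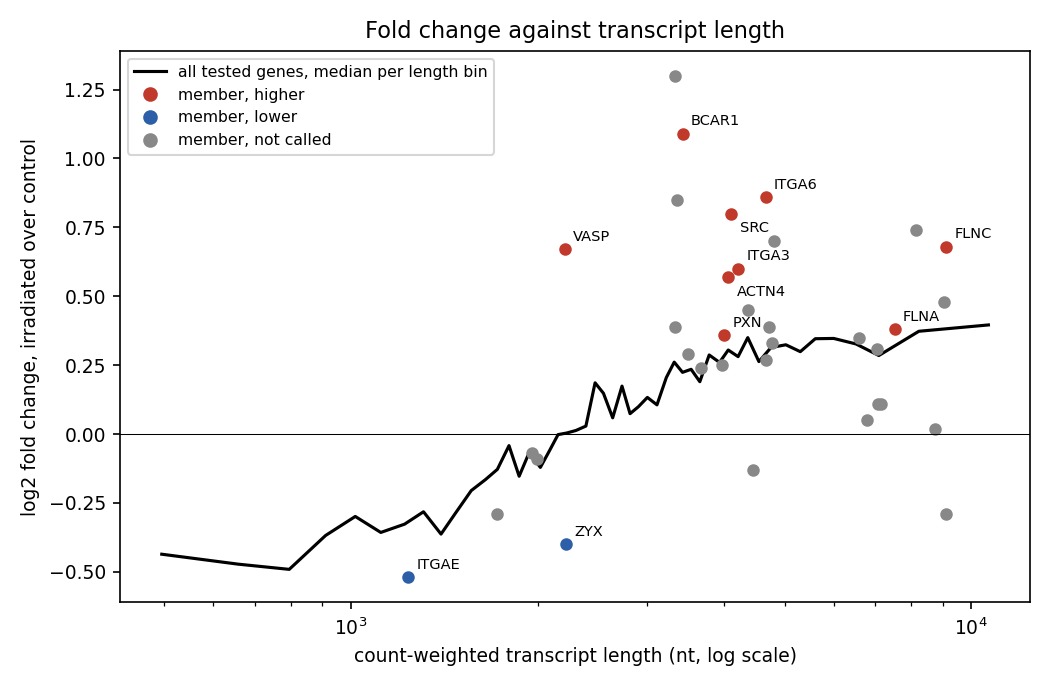
Log2 fold change of the members against count-weighted transcript length (nt, log scale), with the median of all tested genes in length bins as a line. The line rises from below 0 for short to above 0 for long genes, and FLNA lies on it while BCAR1, ITGA6 and VASP lie above it and ZYX below it.

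Counts per role stand against 11.6% of all genes called higher and 14.1% lower, and each role is small. Among the alpha integrins, 2 of 9 tested were higher, 1 was lower and 6 were not called. ITGA6, the alpha6 subunit of laminin receptors (chr2:172427354-172506282), had 26.1, 31.5 and 34.9 CPM in the control cultures and 56.9, 49.95 and 61.9 CPM in the irradiated ones. Every irradiated culture was above every control, and the log2 fold change was 0.86 ± 0.163 (SE, n = 3 and 3, edgeR adjusted p = 0.00186). ITGA3, the alpha3 subunit of another laminin receptor (chr17:50055968-50090481), had the most counts of the alpha subunits, at 96.1, 88.7 and 112.5 CPM in control and 162.2, 141.8 and 147.9 CPM in irradiated cultures. Its groups did not overlap either, with a log2 fold change of 0.60 ± 0.128 (edgeR adjusted p = 0.00345).

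ITGAE, which encodes the alphaE subunit that binds E-cadherin, was the lower one. It had 45.7, 50.03 and 46.3 CPM in control and 28.6, 37.1 and 33.2 CPM in irradiated cultures, a log2 fold change of -0.52 ± 0.158 (edgeR adjusted p = 0.0239) with every irradiated culture below every control. The call was lost with library totals, at -0.08 (adjusted p = 0.71), and with the length offset, at -0.26 (adjusted p = 0.224). It was also lost without control 2, irradiated 1 or irradiated 3, with log2 fold changes that stayed at -0.47, -0.43 and -0.53. The other alpha subunits were ITGA7 at 0.85 (adjusted p = 0.0501, groups apart), ITGA5 at 0.27, ITGA2 and ITGA11 at 0.11, ITGAV at 0.05 and ITGA1 at -0.29, none called.

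None of the 3 tested beta subunits was called. ITGB1, the beta1 partner of most alpha subunits on the list, had 426.5, 410.0 and 448.2 CPM in control and 386.4, 392.6 and 430.0 CPM in irradiated cultures. These ranges overlapped, and the log2 fold change of -0.09 ± 0.111 (edgeR adjusted p = 0.594) turned to 0.36 when libraries were scaled by their totals alone, a scaling that raised the median of all genes by 0.448. ITGB4 and ITGB5 both stood at 0.39, with SEs of 0.512 and 0.239.

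Of the 11 activators and actin linkers, 3 were higher, none was lower and 8 were not called (log2 fold changes from 0.02 to 0.74). The called ones all cross-link actin. FLNC, filamin C (chr7:128830377-128859274), had 93.8, 86.4 and 113.7 CPM in control and 162.2, 168.1 and 142.5 CPM in irradiated cultures. Its groups were apart, with a log2 fold change of 0.68 ± 0.133 (edgeR adjusted p = 0.00217).

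ACTN4, alpha-actinin 4, had 100.3, 75.6 and 117.3 CPM in control and 162.6, 123.4 and 150.2 CPM in irradiated cultures. The groups were apart by a narrow gap, and the log2 fold change was 0.57 ± 0.158 (edgeR adjusted p = 0.0151). FLNA, filamin A, had 226.3, 228.4 and 274.6 CPM in control and 347.3, 278.2 and 327.6 CPM in irradiated cultures, with a log2 fold change of 0.38 ± 0.125 (edgeR adjusted p = 0.0336). Control 3 and irradiated 2 nearly met, and with the length offset FLNA fell to 0.05 (adjusted p = 0.775) and ACTN4 to 0.32 (adjusted p = 0.107).

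ACTN1, alpha-actinin 1, had the most counts of this role, at 476.6, 451.2 and 578.6 CPM in control and 634.2, 564.6 and 582.6 CPM in irradiated cultures. Its groups overlapped and its log2 fold change of 0.24 ± 0.123 was not called (edgeR adjusted p = 0.159). The integrin activators talin and kindlin were not called either, at 0.02 for TLN1, 0.74 for TLN2 and 0.29 for FERMT2. Vinculin, VCL, stood at 0.35 (adjusted p = 0.0579), and the tensins at 0.48 for TNS1, 0.33 for TNS2 and 0.70 for TNS3.

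Promoter windows of the 4 actin cross-linkers are printed because 3 of them rose together. They are RefSeq windows (GRCh38.p14) from 250 bases before to 50 after an annotated start, found for 31 of the 38 members. For a gene with several windows the one with the most matches is shown, which need not be at the gene's outermost start. Capitals mark matches on either strand to a CArG box (the serum response factor element), GGAATG (the TEAD element) or TGANTCA (the AP-1 element). Of all 35116 windows, 1.29% held a CArG box, 14% GGAATG and 7.71% TGANTCA, and of the 60 windows of members 8.33%, 15% and 6.67% did (3, 8 and 4 genes). The last 2 shares are near those of all windows. The CArG share rests on 5 windows of 3 genes, ACTN1, FHL2 and FLNA, of which only FLNA was called. Whether any of these elements bears on the fold changes was not tested.
FLNA promoter window, chrX:154374585-154374884, minus strand: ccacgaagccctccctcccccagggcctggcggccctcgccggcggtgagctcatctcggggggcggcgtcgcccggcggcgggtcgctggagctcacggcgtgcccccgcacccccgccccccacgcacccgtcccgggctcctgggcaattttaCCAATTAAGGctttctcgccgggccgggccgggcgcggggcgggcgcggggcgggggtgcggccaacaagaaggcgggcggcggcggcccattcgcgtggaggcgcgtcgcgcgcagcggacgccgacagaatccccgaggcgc
FLNC promoter window, chr7:128830156-128830455, plus strand: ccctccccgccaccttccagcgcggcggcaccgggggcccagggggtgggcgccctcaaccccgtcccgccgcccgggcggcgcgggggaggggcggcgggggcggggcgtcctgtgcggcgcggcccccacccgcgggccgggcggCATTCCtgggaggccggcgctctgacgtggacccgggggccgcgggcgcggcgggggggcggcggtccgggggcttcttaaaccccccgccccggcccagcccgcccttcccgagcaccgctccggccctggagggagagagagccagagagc
ACTN4 promoter window, chr19:38647399-38647698, plus strand: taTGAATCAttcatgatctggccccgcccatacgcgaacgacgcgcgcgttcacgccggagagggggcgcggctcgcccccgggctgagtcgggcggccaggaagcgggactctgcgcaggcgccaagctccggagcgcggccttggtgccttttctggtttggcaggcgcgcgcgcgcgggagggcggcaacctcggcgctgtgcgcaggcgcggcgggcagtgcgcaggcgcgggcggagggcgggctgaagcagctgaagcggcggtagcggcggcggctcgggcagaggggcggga
ACTN1 promoter window, chr14:68977517-68977816, minus strand: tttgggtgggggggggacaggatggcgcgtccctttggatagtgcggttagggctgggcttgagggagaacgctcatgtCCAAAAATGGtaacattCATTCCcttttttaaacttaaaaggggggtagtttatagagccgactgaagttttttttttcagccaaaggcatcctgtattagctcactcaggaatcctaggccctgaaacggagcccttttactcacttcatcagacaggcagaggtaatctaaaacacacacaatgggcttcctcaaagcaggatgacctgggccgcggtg
FLNA holds a CArG box, FLNC the TEAD element on the other strand and ACTN4 the AP-1 element. The promoter of ACTN1, a gene not called, holds both a CArG box and the TEAD element.

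The ILK-PINCH-parvin complex links the beta subunit to actin, and none of its 4 members was called at gene level. ILK, its scaffold, had 230.3, 250.9 and 222.4 CPM in control and 183.0, 194.6 and 195.9 CPM in irradiated cultures. Every irradiated culture was below every control, and the log2 fold change was -0.29 ± 0.112 (edgeR adjusted p = 0.0635). DESeq2 called it (adjusted p = 0.0279). So did edgeR with a mean of at least 10 CPM, with the replicate number as a block and without control 3. ILK was not called with the length offset, at -0.15 (edgeR adjusted p = 0.267), or with no filter, at -0.28 (edgeR adjusted p = 0.228). Scaled by library totals it stood at 0.16, a move about as large as that median shift of 0.448. LIMS1, the adaptor PINCH1, stood at 0.45 with groups apart, PARVA at -0.13, and PARVB at 1.30 ± 0.581 from 7 to 45 counts per library.

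Among the kinases and scaffolds, 3 of 4 were higher. BCAR1, the scaffold p130Cas (chr16:75228187-75268053), had 25.8, 18.7 and 29.2 CPM in control and 63.2, 40.7 and 52.8 CPM in irradiated cultures. Every irradiated culture was above every control, with a log2 fold change of 1.09 ± 0.202 (edgeR adjusted p = 0.00163). SRC, a tyrosine kinase that phosphorylates p130Cas (chr20:37344685-37406050), had 27.3, 18.4 and 27.4 CPM in control and 44.3, 43.1 and 40.0 CPM in irradiated cultures, a log2 fold change of 0.80 ± 0.184 (edgeR adjusted p = 0.00524) with groups apart.

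PXN, the scaffold paxillin, had the most counts here, at 149.8, 142.0 and 185.4 CPM in control and 223.8, 191.7 and 199.6 CPM in irradiated cultures. The gap between control 3 and irradiated 2 was small, and the log2 fold change of 0.36 ± 0.129 was near the threshold (edgeR adjusted p = 0.0474), falling to 0.11 with the length offset (adjusted p = 0.483). PTK2, the kinase FAK, was not called, at 0.25 ± 0.190 with overlapping groups.

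The zyxin-family and actin assembly proteins moved in both directions. VASP, which promotes actin filament growth, had 16.1, 22.8 and 21.6 CPM in control and 34.0, 32.3 and 30.8 CPM in irradiated cultures. Its groups were apart and its log2 fold change was 0.67 ± 0.185 (edgeR adjusted p = 0.0155), past the threshold except without control 1 or irradiated 1 (adjusted p = 0.0699 and 0.0623). ZYX, zyxin, a LIM protein of tensed adhesions, had 143.2, 124.4 and 126.0 CPM in control and 99.95, 106.5 and 90.8 CPM in irradiated cultures.

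Zyxin was below every control in each irradiated culture, with a log2 fold change of -0.40 ± 0.125 (edgeR adjusted p = 0.0260). Scaled by library totals it stood at 0.05, a move about as large as the 0.448 by which the median of all genes moved. Its call was lost without control 1, irradiated 1 or irradiated 3. FHL2, a LIM-only cofactor with the most counts of this role, had 303.3, 293.6 and 250.1 CPM in control and 241.8, 318.1 and 249.2 CPM in irradiated cultures. Those ranges overlapped, at -0.07 ± 0.131 (edgeR adjusted p = 0.753, and 0.38 scaled by totals), and ENAH, a relative of VASP, stood at 0.31 and was not called.

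**Figure D3:**
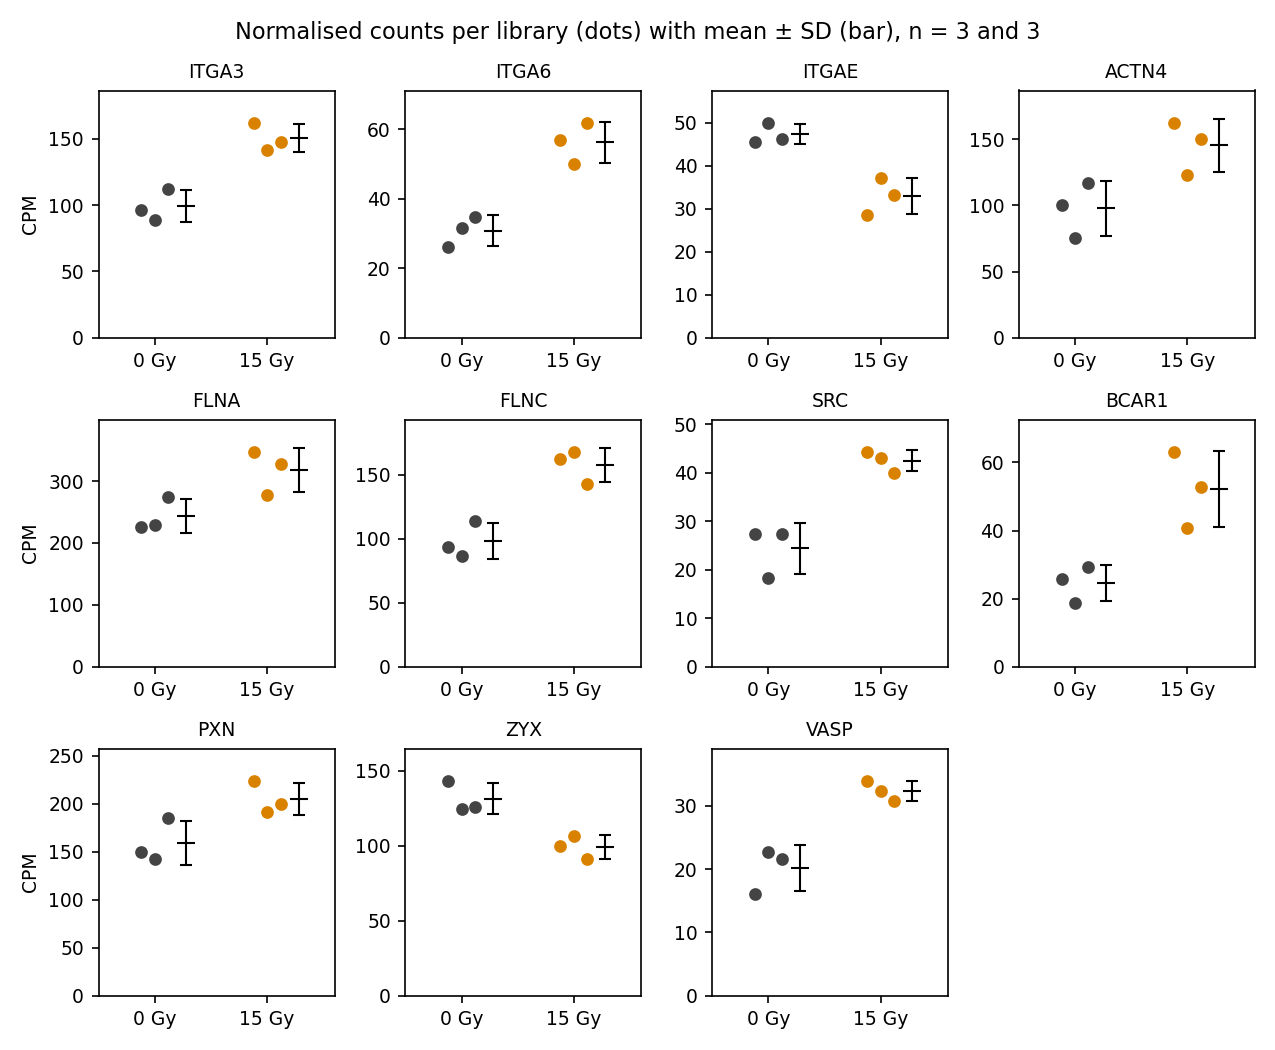
CPM of the 11 called members in each library (dots, control 0 Gy and irradiated 15 Gy) with mean and SD (n = 3 and 3). Each gene's irradiated dots lie above its control dots, except in ITGAE and ZYX, where they lie below.

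At transcript level 284 member rows were tested among 74843. Of these, 9 were higher and 9 lower (adjusted p under 0.05 and absolute log2 fold change over 1) in 7 genes, against 3.36% and 4.33% of all transcripts, 7.69% in all. BCAR1 accounted for 5 of the higher ones, among them ENST00000535626 at 1.13 ± 0.253 (edgeR adjusted p = 0.000159) and ENST00000393422 at 1.05 ± 0.239 (adjusted p = 0.000232). The BCAR1 transcripts held near-equal shares of the gene, so their values are not separate measurements. The lower ones were 4 of ITGB1, 3 of ILK and 2 of ITGAE, those of ITGB1 at control means of only 1.20 to 3.20 CPM. The called count was 9 with DESeq2, 6 without control 2 and 7 without irradiated 1. The shares of all transcripts in those fits are not given. At gene level, calls over all genes fell to 6.59% higher and 9.08% lower without control 2. They fell to 6.24% and 8.79% without irradiated 1, so the drops are not read as particular to the members.

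Within ILK, transcripts moved more than the gene. ENST00000420936, 1 of 3 transcripts with the full coding sequence, had 24.8, 29.1 and 18.5 CPM in control and 5.12, 10.5 and 8.26 CPM in irradiated cultures. Its log2 fold change was -1.60 ± 0.190 (edgeR adjusted p = 2.84e-14), and the groups were apart. The 3 share that coding sequence, and how reads were split among them was not tested. ENST00000537806, which retains the intron after the 97-base exon, had 13.4, 17.2 and 10.1 CPM in control and 2.49, 6.19 and 4.88 CPM in irradiated cultures, at -1.58 ± 0.219 (edgeR adjusted p = 1.57e-10).

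The share of ILK counts on transcripts that skip the 166-base exon, ENST00000526711 and ENST00000532063, was 16.3, 16.2 and 23.2% in control and 32.2, 26.6 and 30.3% in irradiated cultures. That of the 3 transcripts with the 1356-base coding sequence was 68.2, 65.4 and 57.3% in control and 44.5, 51.9 and 47.7% in irradiated cultures. Both groupings were chosen after their values were seen and carry no test. Singly, ENST00000528995, which lacks the 97-base exon and an 86-base exon further on, gained 5.62 percentage points of usage (edgeR diffSpliceDGE adjusted p = 0.0133) and ENST00000420936 lost 5.83 (adjusted p = 6.33e-05).

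Most ITGAE counts did not come from its coding transcript. Transcripts not classed as coding in GENCODE release 29 held 87.7% of its control counts. This is not particular to ITGAE, as such transcripts held 60.5% in ITGA3 and 50.8% in BCAR1. In ITGAE, the largest of them is a processed transcript. The 4-exon, 672-nt processed transcript ENST00000572179 had 34.2, 39.2 and 28.7 CPM in control and 13.1, 20.1 and 17.4 CPM in irradiated cultures. Its log2 fold change was -1.01 ± 0.172 (edgeR adjusted p = 3.41e-07), with groups apart. Scaled by library totals this transcript stood at -0.51 (edgeR adjusted p = 0.0121). Genes in the length bin around 658 nt had a median log2 fold change of -0.47. No length offset was fitted to transcripts, so the part of length in this fall was not tested. The coding ENST00000263087 averaged 5.86 CPM in control and 5.73 CPM in irradiated cultures, at -0.07 (adjusted p = 0.886).

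As shares of ITGAE counts, the processed transcripts held 83, 83.8 and 70.4% in control and 54.2, 60.1 and 59.2% in irradiated cultures. Retained-intron transcripts held 5.49, 6.73 and 13.9% in control and 26.6, 23.4 and 23.1% in irradiated cultures, and the groups were apart in both. These groupings, too, were made after the values were seen. Other ITGAE transcripts overlap HASPIN on the opposite strand, but ENST00000572179 starts 66 bases outside it, and HASPIN had 4 to 7 counts per library.

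**Figure D4:**
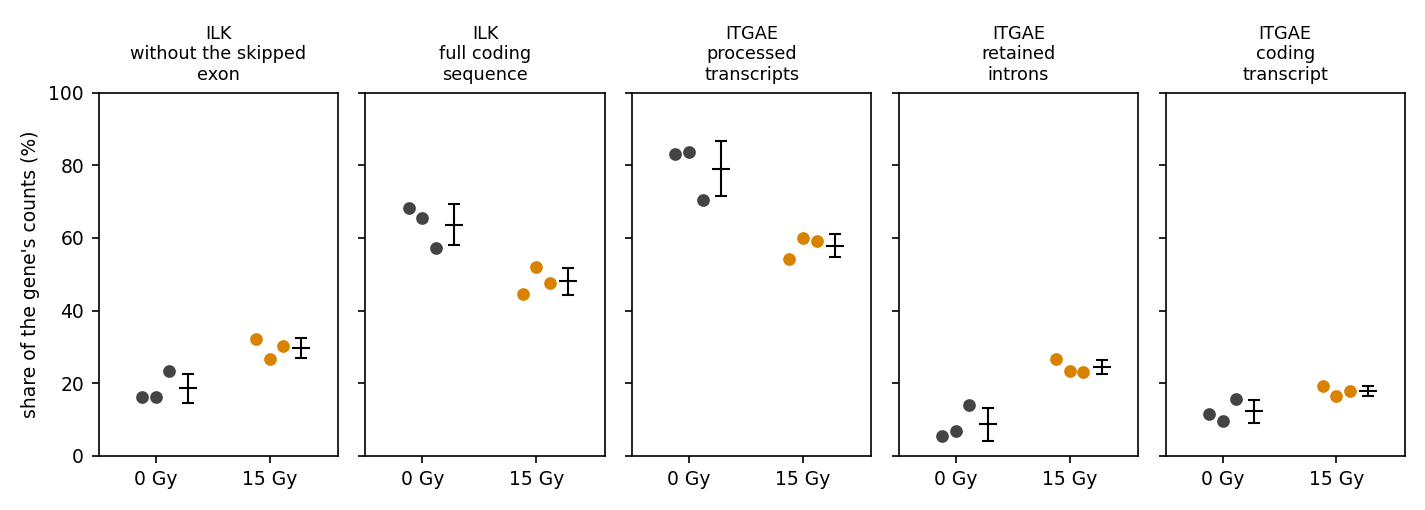
Share of a gene's counts (%) on groups of ILK and ITGAE transcripts in each library (dots) with mean and SD (n = 3 and 3). Irradiated libraries lie above control for exon-skipping ILK and retained-intron and coding ITGAE, and below for full-coding ILK and processed ITGAE.

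No member isoform passed both an adjusted p under 0.05 and a usage change of at least 10 percentage points in edgeR's diffSpliceDGE, against 0.404% of all isoforms. The unadjusted p was under 0.05 in 43 of 284, against 13.4% of all isoforms. On adjusted p alone 10 member isoforms passed, against 4.44% of all, and they lay in 5 of the 35 genes, against 13.4% of all genes. By limma's diffSplice 1 member isoform passed both limits, against 1.22% of all isoforms: ITGAE ENST00000572179, which lost 18.7 points (limma adjusted p = 0.000854, edgeR adjusted p = 0.218). TLN2 ENST00000472902 lost 10.5 points and passed neither test (edgeR adjusted p = 0.0912, limma adjusted p = 0.0756). On simulated counts edgeR's usage test made few false calls but missed many true changes that limma's found, so its count of 0 does not show that usage stayed the same.

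Genes around the adhesion, in 6 lists, gave 27 higher and 18 lower of 109 tested, against 11.6% and 14.1% of all genes, so the share lower is near that of all genes. The higher count was 10 without irradiated 1, 13 without irradiated 3 and 15 without control 2, and the lower count 11 without irradiated 3. The share of all genes fell too in those fits, to between 6.24% and 6.59% higher and to 8.9% lower without irradiated 3. Integrin ligands gave 10 higher and 1 lower of 20, led by the collagens COL6A1 at 1.14 and COL4A2 at 1.16 (edgeR adjusted p = 0.000478 for both). Next, tied at an adjusted p of 0.00636, came the collagen COL1A2 at 1.35 and LTBP1, a binding protein of latent TGF-beta, at 3.18 from 0 to 5 counts in control and 15 to 26 counts in irradiated libraries. Actin contraction genes gave 3 higher and 7 lower of 22, led by lower cofilin CFL1 at -0.65, tropomyosin TPM2 at -0.51 and myosin light chain MYL6 at -0.61 (adjusted p = 0.00203, 0.00334 and 0.00541). These 3 are short, at 1535, 1150 and 758 nt. In the shortest class, which holds TPM2 and MYL6, 34.4% of all genes were called lower. In the next class (1522 to 2267 nt), which holds CFL1, 20.3% were. With the length offset the 6 lists gave 21 higher and 12 lower of 109, against 8.66% and 11.5% of all genes, so the share lower is again near that of all genes.

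The counts of the remaining lists also stand against 11.6% of all genes higher and 14.1% lower. Other adaptors gave 6 higher and 2 lower of 23, led by TRIP6, a zyxin relative, at 0.76, caveolin CAV1 at -0.50 and nexilin NEXN at -0.71 (edgeR adjusted p = 0.00513, 0.00516 and 0.0109). Adhesion signalling gave 5 higher and 2 lower of 27, led by the GTPase CDC42 at -0.65 and the adaptors SHC1 at 0.54 and CRKL at 0.91 (adjusted p = 0.0021, 0.00605 and 0.0107). Tetraspanins and integrin partners gave 3 higher and 6 lower of 16, led by SLC3A2, the heavy chain of an amino acid transporter, at -0.78, syndecan SDC1 at 0.86 and tetraspanin CD81 at 0.78 (adjusted p = 0.000852, 0.00154 and 0.00326). The 1 other integrin subunit tested, ITGA2B, stood at 0.78 and was not called (adjusted p = 0.321).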

How the data were processed

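RNA of 6 HMC3 libraries, 3 per dose, was sequenced by the authors with an Oxford Nanopore cDNA-PCR kit. The authors deposited raw counts, one per transcript and library, after alignment by minimap2 to GRCh38 and quantification by Salmon. The sources used here do not give versions, the annotation release, the strand setting or whether reads were collapsed by molecular identifier. GENCODE release 29 supplied the class, length and position of each transcript, and lacks 84 of the 284 tested member transcripts.

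Genes with 10 counts in at least 3 libraries, transcripts with 3 counts in at least 1 library and genes with at least 2 such transcripts were kept, and transcript counts were summed per gene. edgeR 4.0.16 (TMM, robust quasi-likelihood fit) in R 4.3.3 gave the tests, with Benjamini-Hochberg adjustment over all features. The SE is the absolute log2 fold change over the square root of F. CPM are TMM-normalised. Usage was tested with diffSpliceDGE, and with limma 3.58.1 as an alternative, and DESeq2 1.42.0 as another for genes and transcripts. The tests were checked on simulated data. Exons of 25 members overlap another gene, 22 on the opposite strand.

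The members and lists were chosen with earlier results of these data known. Named were all members, with values per library for called ones and for the member with most counts in each role, the 3 genes of smallest adjusted p in each list, and in each role the 2 called transcripts of smallest adjusted p with a mean of at least 5 CPM. ILK and ITGAE transcripts beyond those were chosen after their values were seen. p-values measure the spread between 3 cultures.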

Additional observations from a re-analysis of the deposited data

How the results depend on the processing

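Scaling by library totals alone shifted the median over all tested genes by 0.448 (log2) and gave 26 members higher and 0 lower (32.8% and 3.2% of all genes), 68 pathway genes higher and 1 lower, a member median of 0.8 and 62 member transcripts called. It turned ITGB1 to 0.361, ILK to 0.16, ZYX to 0.046 and FHL2 to 0.384. With the length offset the member median was 0.048, 1 member was lower (11.5% of all genes) and FHL2 turned to 0.006. Without the low-count filter 1 member was lower (4.99% of all genes). DESeq2 called 9 member transcripts of 175 with an adjusted p, and limma's diffSplice called 1 switched isoform. For called member transcripts, the shares of all transcripts in these fits and in those below are not given.

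Leaving out 1 library at a time gave 5 to 12 members higher (5 without irradiated 1, 12 without control 3). It gave 0 to 3 lower (0 without irradiated 1 or 3, 1 without control 1 or 2). The shares of all genes moved too, from 6.24% higher and 8.79% lower without irradiated 1 to 15.6% and 17.3% without control 3. Pathway genes ran from 10 to 33 higher (10 without irradiated 1, 13 without irradiated 3, 15 without control 2) and 11 to 21 lower (11 without irradiated 3). Member transcripts called ran from 6 to 24 (6 without control 2, 7 without irradiated 1), and switched isoforms from 0 to 1 (1 without control 3). FHL2 ranged from -0.2 to 0.008, turning without irradiated 1. The cause was not tested in any of these.

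Same-numbered cultures did not deviate together (r = -0.001, 0.091 and 0.016), so the numbers were not read as pairs. With the replicate number as a block, 14 members were called, the 11 of the main design with ILK, ITGA7 and VCL. Calls over all genes rose too in that fit, to 13.9% higher and 15.1% lower, from 11.6% and 14.1%.

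Counts limit the members under 10 CPM, and whether PCR reads were collapsed by molecule is not stated. The n is 3 cultures per dose from a single cell line.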
